A study of Mus musculus with 6 samples.

Results

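The genes described here are the subunits of the phagocyte NADPH oxidase that were chosen by name, *Cybb*, *Cyba*, *Ncf1*, *Ncf4* and *Rac2*, together with *Nox4*, the oxidase of stromal cells, which makes 6 of the 17854 genes in the expression table. All 6 were found and all 6 passed the filter on low counts. They were followed in 3 libraries of Tomato+ cells from the repaired knee cartilage of mice with osteoarthritis that had received mesenchymal stromal cells, MSCs (InjectPrrx, here called MSC-derived) and in 3 libraries of articular Tomato+ cells from *Prrx1-Cre; R26 tdTomato* mice matched for age and sex (NativePrrx, here called endogenous). The injected MSCs were sorted Tomato+ cells from the inguinal white fat of *Prrx1-Cre; R26 tdTomato* mice, and their hosts were *C57BL/6* mice whose anterior cruciate ligament had been cut. All animals were male on a *C57BL/6* background, and the exact age of the sequenced mice is not given in the sources used here. *Prrx1-Cre* acts in limb mesenchyme and marks descendants permanently, so that the Tomato label records ancestry and not what a cell expresses at harvest. The endogenous mice are not described as operated on, so that the origin of the cells, the surgery and the host cannot be told apart in this comparison. The 3 mice given per group are not stated to be 1 per library, and p-values measure the spread between libraries.

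The phagocyte oxidase moves electrons from NADPH across a membrane onto oxygen, which gives superoxide, the starting point of the respiratory burst of neutrophils and macrophages. Its core is a pair of membrane proteins, gp91phox (*Cybb*) and p22phox (*Cyba*). Cytosolic proteins, among them p47phox (*Ncf1*) and p40phox (*Ncf4*), and a Rac GTPase join this core when the cell is stimulated. NOX4 (*Nox4*) also pairs with p22phox, but it works without the cytosolic subunits, releases mainly hydrogen peroxide and is found in mesenchymal cells, chondrocytes among them.

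Promoter sequences from RefSeq (GRCm38.p6) were matched for 4 of the 6 genes, and the 100 bases before each start site are shown because 3 of these genes rose and *Nox4* fell. Capitals mark matches, on either strand, to CCAAT (the CCAAT box) or GGGCGG (a GC box), and the letters run 5′ to 3′ on the gene's own strand, at chrX:9469325-9469424 for *Cybb*, chr8:122432941-122433040 for *Cyba*, chr5:134229626-134229725 for *Ncf1* (all on the minus strand) and chr7:87246549-87246648 for *Nox4* (plus strand).
Cybb: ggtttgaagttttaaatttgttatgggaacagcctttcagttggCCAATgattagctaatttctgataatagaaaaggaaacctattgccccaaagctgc
Cyba: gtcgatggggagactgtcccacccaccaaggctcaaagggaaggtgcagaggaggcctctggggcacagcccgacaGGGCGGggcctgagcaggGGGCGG
Ncf1: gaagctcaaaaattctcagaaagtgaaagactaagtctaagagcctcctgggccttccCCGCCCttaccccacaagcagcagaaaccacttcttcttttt
Nox4: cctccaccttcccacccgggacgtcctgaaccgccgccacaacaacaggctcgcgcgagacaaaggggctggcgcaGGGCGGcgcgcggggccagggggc
The search covered the whole window of 300 bases, from 250 before to 50 after the start, and one more motif, GAGGAA, the core that the myeloid factor PU.1 binds. *Cybb* alone held CCAAT, which begins 56 bases before its start, and it alone held GAGGAA, on the opposite strand from base 10 after the start. *Cyba*, *Ncf1* and *Nox4* each held GGGCGG or its reverse complement, so that this motif did not separate the gene that fell from those that rose. Of 32851 mouse promoter windows, 37.4% held CCAAT, 35.7% GGGCGG and 28.3% GAGGAA, so that each match is common.

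Expected counts summed to between 22060628 and 24881796 per library, and 3 counts, taken as the smallest level to be read, corresponded to 0.121 to 0.136 CPM (counts scaled to the library's sum). Endogenous replicate 1 stood apart, with 3449 genes at 0 counts against 1323 and 1375 in the other endogenous libraries, and results are given without it where they change. Of 14289 genes tested with edgeR's quasi-likelihood test, 61.6% were called at an adjusted p (Benjamini-Hochberg over all genes) of 0.05 or less, 31.3% as higher and 30.3% as lower in the MSC-derived cells, with a median log2 fold change of 0.05. Higher genes made up 50.8% of these calls, against 34.4% with limma on TPM (levels per length, scaled to a common sum in each library), which moved the median to -0.28. The samples are labelled as chondrocytes, but all 10 chondrocyte markers examined were called lower in the MSC-derived cells. *Col2a1*, the collagen of cartilage, had 97.9 FPKM there against 7112 FPKM in the endogenous group. *Prg4* fell least of the 10, with 1621 FPKM against 2173 FPKM (log2 fold change -0.51). By staining for protein, the paper found most Tomato+ cells at the joint surface positive for Col2α1.

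All 5 phagocyte subunits were called higher and *Nox4* lower in the MSC-derived cells, in a comparison that called 31.3% of all genes higher and 30.3% lower. In FPKM the groups did not overlap for any of the 6 genes, and of all genes tested 42.5% were separated upward and 30.7% downward in this way. The rises ran from 8.60-fold for *Ncf1* to 16.5-fold for *Cyba*, and *Nox4* was 2.29-fold lower. These folds come from the fit to counts. The 5 rises were smallest with limma on TPM, at log2 fold changes from 2.59 for *Ncf1* to 3.61 for *Cyba*. Levels are given in FPKM (fragments scaled to transcript length and library depth), which can be set side by side between genes. FPKM summed to 808701 to 813572 per MSC-derived library and to 504768 to 573603 per endogenous one. The size of a fold between the groups therefore depends on the scaling. In bulk libraries a larger share of cells that express a gene and more of its RNA per cell cannot be told apart.

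**Figure D1:**
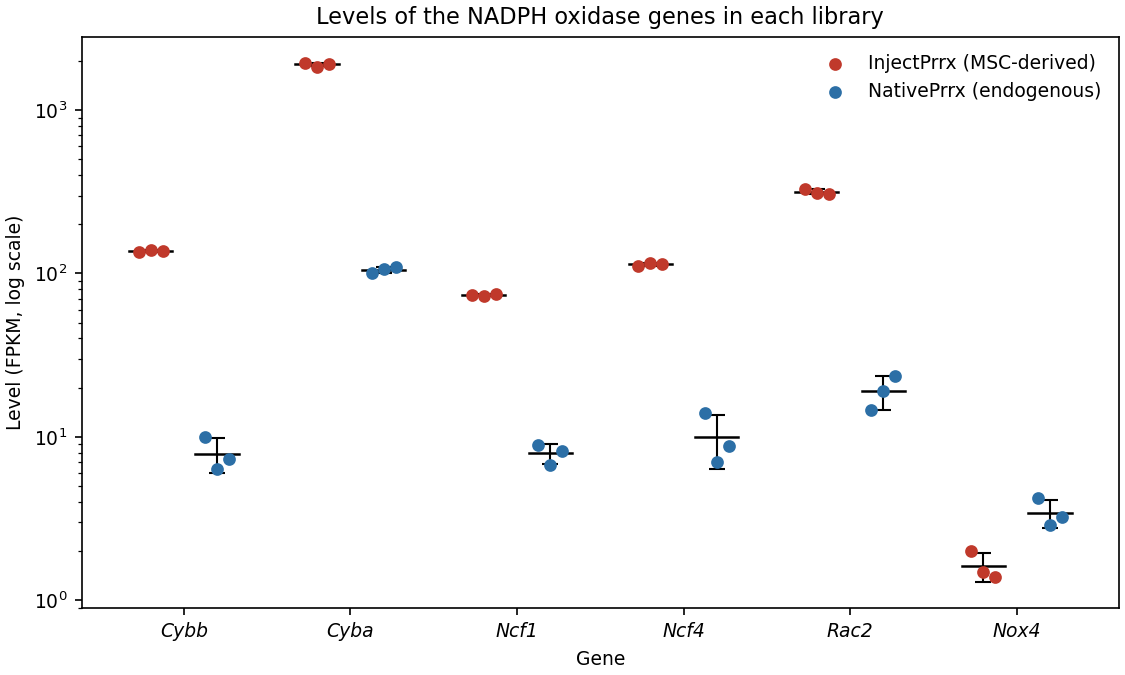
Level of each gene in every library (FPKM, log axis), with points for libraries, lines for group means and bars for the SD over 3 libraries. The 5 phagocyte subunits lie higher in the MSC-derived libraries (red) than in the endogenous ones (blue), and *Nox4* lies lower.

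*Cybb*, which encodes the catalytic subunit, had 134.9, 139.2 and 137.0 FPKM in MSC-derived replicates 1, 2 and 3, and 10, 6.36 and 7.32 FPKM in endogenous replicates 1, 2 and 3. The lowest MSC-derived library had 13262 counts and the highest endogenous one 1033, so that both groups were well above the floor. The log2 fold change was 4.0 (SE, its standard error, 0.17, adjusted p = 8.12e-07). *Cyba*, the membrane partner of both NOX2 and NOX4, had 1940.1, 1848.8 and 1923.3 FPKM in the MSC-derived libraries and 100.2, 106.8 and 109.1 FPKM in the endogenous ones. It was the most abundant of the 6 genes in every library, and by mean FPKM it ranked 47 among all genes of the MSC-derived cells and 724 in the endogenous cells. The log2 fold change was 4.05 (SE 0.07, adjusted p = 3.39e-08), with the smallest SE of the 6.

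Among the cytosolic subunits, *Ncf1*, the organizer that carries the complex to the membrane, had 74.3, 72.7 and 75.0 FPKM in the MSC-derived libraries and 8.96, 6.68 and 8.13 FPKM in the endogenous ones. Its log2 fold change of 3.10 (SE 0.12, adjusted p = 5.45e-07) was the smallest rise of the 5. *Ncf4*, whose product binds a phagosomal lipid, had 111.9, 115.9 and 113.7 FPKM against 14.1, 7.02 and 8.82 FPKM, a log2 fold change of 3.38 (SE 0.25, adjusted p = 1.56e-05). Endogenous replicate 1 was the highest of its group for *Ncf4*, and without it the log2 fold change was 3.67.

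*Rac2*, the Rac GTPase of blood cells, had 330.0, 312.7 and 308.5 FPKM in the MSC-derived libraries and 14.6, 19.1 and 23.4 FPKM in the endogenous ones, a log2 fold change of 3.94 (SE 0.17, adjusted p = 1.11e-06). Its expected counts were the only ones among the 6 genes that were not whole numbers. RSEM had therefore divided some reads between *Rac2* and other transcripts, and the exact level is uncertain to that extent. *Rac1*, the widely expressed relative that can serve the same oxidase, had 167.0, 168.7 and 172.0 FPKM against 120.7, 101.4 and 102.3 FPKM, a log2 fold change of 0.53 (SE 0.08, adjusted p = 0.00103), which limma on TPM did not call (0.09, adjusted p = 0.539). *Rac1* was the more abundant of the pair in each endogenous library and *Rac2* in each MSC-derived library.

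*Nox4* was the least abundant of the 6 genes in every library, with 2.0, 1.49 and 1.38 FPKM in MSC-derived replicates 1, 2 and 3 and 4.19, 2.90 and 3.21 FPKM in the endogenous libraries. These levels rest on 109 to 175 counts and 246 to 351 counts per library, all far above the floor, although the gap between the highest MSC-derived and the lowest endogenous library was small beside the gaps of the other genes. The log2 fold change was -1.20 (SE 0.24, adjusted p = 0.00327), and it ran from -1.37 to -0.75 over the fits tried, with an adjusted p of at most 0.0195. *Nox4* therefore fell by less than the phagocyte subunits rose.

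The order of the levels differed between the groups. In each MSC-derived library it was *Cyba*, *Rac2*, *Cybb*, *Ncf4*, *Ncf1* and *Nox4*, and the group means of neighbours in this order differed by far more than their SD. In the endogenous cells *Cyba* (105.4 ± 4.63 FPKM, SD, n = 3) and *Rac2* (19.0 ± 4.40 FPKM) again came first, but *Ncf4* (9.97 ± 3.66 FPKM), *Ncf1* (7.92 ± 1.15 FPKM) and *Cybb* (7.89 ± 1.89 FPKM) lay within their spread of each other. The coefficient of variation of the 5 phagocyte subunits was 1.56% to 3.59% among MSC-derived libraries and 4.39% to 36.7% among endogenous ones, whereas that of *Nox4* was 20.4% and 19.6%. Within the endogenous group, replicate 1 had the highest *Cybb*, *Ncf1*, *Ncf4* and *Nox4* and the lowest *Cyba* and *Rac2*, so that the subunits did not vary as a block there. The place of *Cyba* depended on the scaling, since in TPM replicate 1 was the highest (198.5 against 186.5 and 190.2). *Rac2* was lowest in replicate 1 in TPM too (29.0 against 33.4 and 40.8).

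Ratios within a library cancel its depth and scaling, and 12 were compared with a two-sided exact permutation test over the libraries, whose smallest possible p with 3 against 3 is 0.1, so that no ratio could pass a threshold of 0.05. The smallest p after Benjamini-Hochberg adjustment over the 12 was 0.15. *Cyba* stood at 14.4, 13.3 and 14.0 times *Cybb* in the MSC-derived libraries and at 9.93, 16.5 and 14.7 times in the endogenous ones, and the groups overlapped (adjusted p = 1.00, exact permutation test). *Rac2* per *Cybb* overlapped as well, at 2.25 to 2.44 against 1.46 to 3.17. The overlap of these 2 ratios came from endogenous replicate 1 alone, at 9.93 for *Cyba* and 1.46 for *Rac2*. In the other endogenous libraries both ratios lay above every MSC-derived one, at 2.97 and 3.17 for *Rac2*. Without replicate 1 the log2 difference of *Cyba* to *Cybb* was -0.17. *Ncf1* per *Cybb* was 0.522 to 0.551 in the MSC-derived libraries and 0.897 to 1.11 in the endogenous ones, a log2 difference of -0.91, and *Ncf4* per *Cybb* was 0.829 to 0.832 against 1.10 to 1.40, a difference of -0.57. For both, every MSC-derived library lay below every endogenous one (p = 0.1, adjusted p = 0.15, exact permutation test).

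The ratio of *Cybb* to *Nox4*, both catalytic subunits, was 64.3, 87.6 and 92.6 in MSC-derived replicates 1, 2 and 3 and 2.35, 2.15 and 2.24 in the endogenous libraries, so that *Cybb* was the more abundant oxidase in all 6 libraries. The log2 ratio differed by 5.16 between the groups, which is 35.8-fold. *Cyba* to *Nox4* differed by 5.21 and *Rac2* to *Rac1* by 3.43 on the log2 scale, again without overlap (adjusted p = 0.15 for each of these 3 ratios, exact permutation test).

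**Figure D2:**
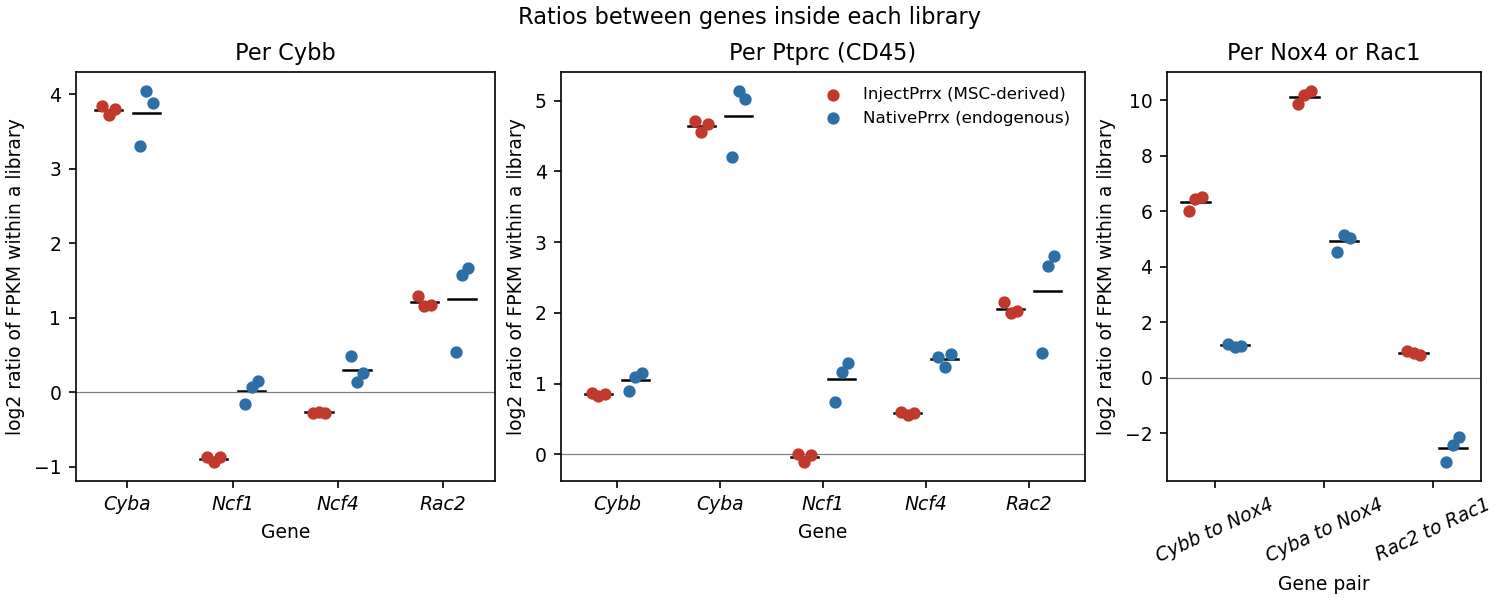
log2 ratios of FPKM inside each library, with points for libraries and lines for group means. Per *Cybb* and per *Ptprc*, *Ncf1* and *Ncf4* lie lower in the MSC-derived libraries (red) than in the endogenous ones (blue). *Cyba* and *Rac2* overlap, through endogenous replicate 1 alone, and the ratios to *Nox4* and *Rac1* lie far apart.

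Leukocyte genes rose beside the phagocyte subunits. *Ptprc*, which encodes CD45, had 8136 to 8926 counts in the MSC-derived and 340 to 604 counts in the endogenous libraries, a log2 fold change of 4.20 (SE 0.22), close to those of *Cybb*, *Cyba* and *Rac2*. All 8 leukocyte markers were called higher, beside 31.3% of all genes tested. The markers had a median log2 fold change of 4.04 and a summed level of 2875 to 2926 FPKM against 110.7 to 162.0 FPKM. All 12 neutrophil markers were higher (median 3.74, summed level 119386 to 127110 against 4162 to 6651 FPKM), and so were all 12 macrophage markers (median 8.57, 11267 to 11532 against 30.6 to 43.7 FPKM) and all 6 eosinophil markers (median 3.50, 1364 to 1413 against 75.2 to 110.7 FPKM). No marker of these 4 lists was at 0 in every library of a group. The macrophage gene *Adgre1* (F4/80) had at least 18190 counts in each MSC-derived library and 7, 52 and 106 counts in endogenous replicates 1, 2 and 3. Endogenous replicate 1, the lowest for *Adgre1*, was thus the highest of its group for *Cybb* and *Ptprc*. The cells had been sorted for Tomato, and the part of leukocyte RNA in the oxidase result was not tested.

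Set against *Ptprc*, none of the 5 subunits had a higher mean log2 ratio in the MSC-derived cells, although *Cyba* did once 1 FPKM was added to all values (0.14). *Cybb* per *Ptprc* was 1.77 to 1.83 in the MSC-derived and 1.86 to 2.21 in the endogenous libraries, a log2 difference of -0.19. *Ncf1* per *Ptprc* was 0.926 to 1.01 against 1.67 to 2.46, a difference of -1.10, and *Ncf4* per *Ptprc* 1.48 to 1.52 against 2.35 to 2.66, a difference of -0.76. For these 3 genes the groups did not overlap (adjusted p = 0.15 for each, exact permutation test). *Cyba* and *Rac2* per *Ptprc* overlapped between the groups, with differences of -0.15 and -0.24 (adjusted p = 0.84 and 0.80, exact permutation test). This overlap came from endogenous replicate 1 alone, at 18.5 for *Cyba* and 2.71 for *Rac2*. The other endogenous libraries lay above every MSC-derived one, at 35.3 and 32.6 against 23.5 to 26.3 for *Cyba*. For *Rac2* they stood at 6.34 and 7.02 against 3.98 to 4.47.

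The stromal side moved the other way. All 8 mesenchymal markers were called lower in the MSC-derived cells, beside 30.3% of all genes tested. The markers had a median log2 fold change of -2.33 and a summed level of 1703 to 1716 FPKM against 20216 to 22711 FPKM. The chondrocyte markers had a median of -6.44, and all 6 osteoblast markers were lower too, with a median of -5.80. *Nox4*, at -1.20, fell by less than any of these medians, and the part of fewer stromal cells in its fall was not tested. Of the other cell types, B cell markers had 4 of 6 higher (2 without MSC-derived replicate 2), T and NK cell markers all 5 that were tested of 6 (2 or 3 when any MSC-derived library or endogenous replicate 2 was left out) and endothelial markers 3 of 5 (5 without endogenous replicate 1). Over all genes tested, 31.3% were called higher.

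Beyond the 6 genes, a list of 12 relatives and partners of the oxidases in the table had 11 that passed the filter, of which 4 were called higher and 4 lower, near the 31.3% and 30.3% of all genes, and the median log2 fold change was -0.15. *Nox1*, *Nox3*, *Noxa1* and *Duoxa2* are not analysed here. The 4 that rose were *Hvcn1*, *Cybc1*, *Rap1a* and *Rac1*. *Hvcn1*, a proton channel that balances the charge moved by the oxidase, had 119.0 to 123.3 FPKM against 17.9 to 21.4 FPKM, a log2 fold change of 2.49 (SE 0.09, adjusted p = 4.09e-07). *Cybc1*, a chaperone of the gp91phox and p22phox pair, had 42.6 ± 1.72 FPKM against 15.4 ± 2.77 FPKM (SD, n = 3) and changed by 1.34 on the log2 scale (SE 0.14, adjusted p = 0.000129). *Rap1a*, a small GTPase that copurifies with the membrane core, changed by 0.84 (SE 0.14, adjusted p = 0.00157), but limma on TPM did not call it (0.41, adjusted p = 0.0880).

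The 4 relatives that fell were *Duox1*, *Sh3pxd2b*, *Sh3pxd2a* and *Noxo1*. *Duox1*, an oxidase of epithelia, had 18 to 26 counts in the MSC-derived and 140 to 142 counts in the endogenous libraries, a log2 fold change of -2.74 (SE 0.33, adjusted p = 0.000247). *Sh3pxd2b* and *Sh3pxd2a*, scaffolds related to p47phox, had log2 fold changes of -2.26 and -1.81 (adjusted p = 4.44e-06 and 2.10e-05). The call of *Noxo1*, an organizer of the NOX1 oxidase, was the weakest (-1.53, SE 0.55, adjusted p = 0.0424), resting on 9 to 54 counts, and it was lost when any MSC-derived library or endogenous replicate 3 was left out (adjusted p = 0.0655 to 0.164, against 0.0185 to 0.164 over all libraries left out in turn). It was also lost with limma on FPKM with 1 or 0.1 added (adjusted p = 0.0601 and 0.0675) and with no filter on low counts (adjusted p = 0.0698). *Poldip2*, a partner of NOX4, had 28.6 to 32.7 FPKM against 27.8 to 35.7 FPKM and was not called (-0.15, SE 0.12, adjusted p = 0.322), although it was called lower without endogenous replicate 1 (-0.29, adjusted p = 0.00227) and with limma on TPM (-0.57, adjusted p = 0.00138). *Rac3* (0.14, SE 0.31) and *Duoxa1* (-1.47, SE 1.22) were not called either. *Duoxa1* had 0 counts in endogenous replicate 1 and 98 and 113 in the others, and without replicate 1 it was called lower (-2.10, adjusted p = 7.25e-06). *Duox2* had at most 4 counts in any library and was not tested.

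**Figure D3:**
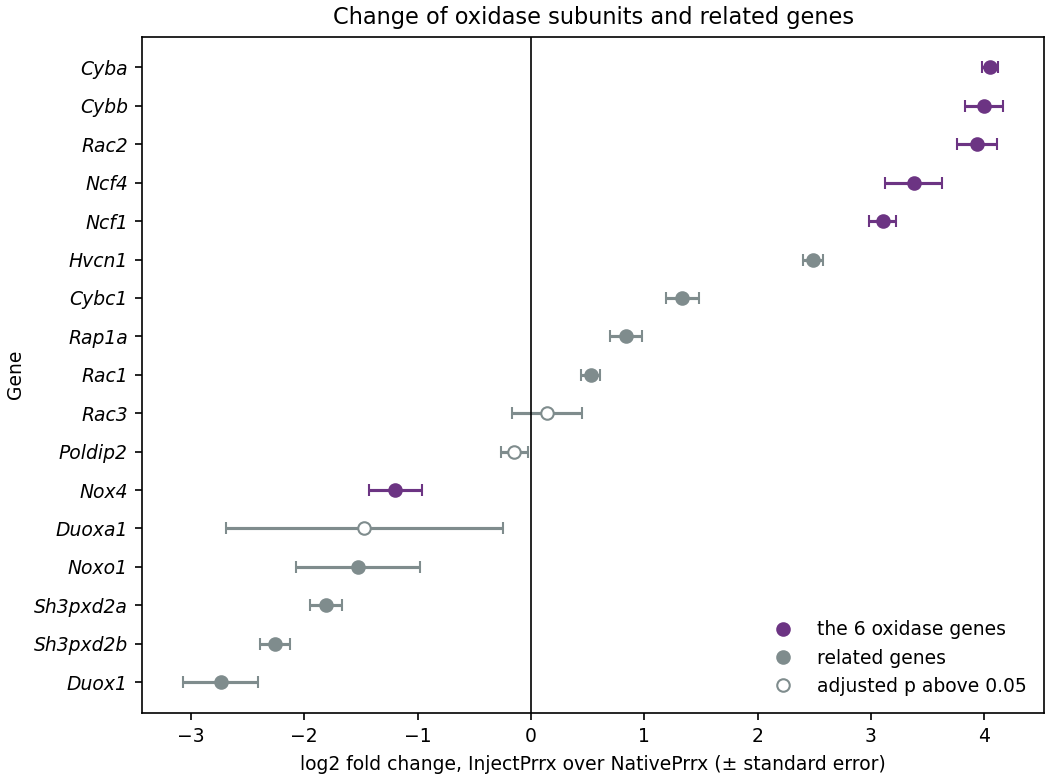
log2 fold change of the 6 oxidase genes (purple) and of their tested relatives (grey), with bars for the standard error from edgeR and open points for an adjusted p above 0.05. The subunits of the phagocyte enzyme are at the top, from 3.10 to 4.05, and *Nox4* is at -1.20.

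Upstream of the enzyme, a list of 24 genes held kinases and a kinase subunit, a phospholipase, Rac exchange factors and GDP dissociation inhibitors. Of these, 19 were higher and 4 lower, with a median log2 fold change of 1.74, beside 31.3% and 30.3% of all genes. The largest rises were those of *Syk*, the kinase behind Fc receptors and dectin-1, and *Vav1*, a Rac exchange factor of blood cells, at 4.77 and 4.75 (SEs 0.33 and 0.20). The largest falls were those of *Prkcz*, an atypical protein kinase C, and *Tiam2*, another Rac exchange factor, at -3.68 and -3.62 (SEs 0.19 and 0.14). *Arhgdib*, which holds Rac proteins in the cytosol of blood cells, had 954.2 ± 7.58 FPKM in the MSC-derived group against 99.9 ± 9.90 FPKM in the endogenous one (SD, n = 3). Its broadly expressed relative *Arhgdia* led the list in the endogenous cells and had a log2 fold change of 0.66 (SE 0.06). Some regulators of 1 family thus moved apart, since *Prkcb* and *Prkcd* rose by 3.46 and 2.04 while *Prkca* fell by 2.88 on the log2 scale.

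All 17 genes of a list of receptors and receptor chains upstream of the burst, the inhibitory Fc receptor *Fcgr2b* among them, were called higher (31.3% of all genes were), with a median log2 fold change of 3.93. *Fcgr1*, the high-affinity receptor for IgG, had 58.6 to 61.3 FPKM in the MSC-derived libraries and 6 to 14 counts, or 0.11 to 0.24 FPKM, in the endogenous ones, and its log2 fold change was 8.21 (SE 0.20, adjusted p = 9.80e-08). *Fcer1g*, the signalling chain shared by several Fc receptors, was the most abundant of them, at 3962 ± 88.5 FPKM against 84.9 ± 30.4 FPKM (SD, n = 3). *Tnfrsf1a*, a receptor for TNF that many cell types carry, led in the endogenous cells at 111 FPKM and changed least, by 0.28 (SE 0.07, adjusted p = 0.0103). Its direction turned with limma on TPM, at -0.16 (adjusted p = 0.0404).

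A further list held peroxidases, genes for the removal of superoxide and peroxide, and other genes of the response to oxidants. Of its 26 tested genes, 19 were higher and 5 lower, with a median of 0.96, beside 31.3% and 30.3% of all genes. *Hmox1*, the inducible heme oxygenase, had 3950 ± 140 FPKM in the MSC-derived group against 88.5 ± 15.9 FPKM in the endogenous one (SD, n = 3) and a log2 fold change of 5.36 (SE 0.15). *Epx*, the peroxidase of eosinophils, rose by 2.76 (SE 0.30), and *Mpo*, that of neutrophils, by 2.29 (SE 0.09). The 5 that fell were *Gpx8*, *Sod3*, *Gpx7*, *Gpx3* and *Prdx4*, which encode enzymes of the secretory pathway or of the space outside the cell. *Gpx8* fell by 3.04 (SE 0.12) and *Sod3*, the extracellular superoxide dismutase, by 2.87 on the log2 scale (SE 0.11). *Gpx3*, a secreted glutathione peroxidase, was the most abundant gene of the list in the endogenous cells, at 3321 ± 381 FPKM against 816.6 ± 13.4 FPKM (SD, n = 3). *Sod2*, in mitochondria, and *Nqo1* were not called (0.16 and -0.45, adjusted p = 0.128 and 0.450).

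**Figure D4:**
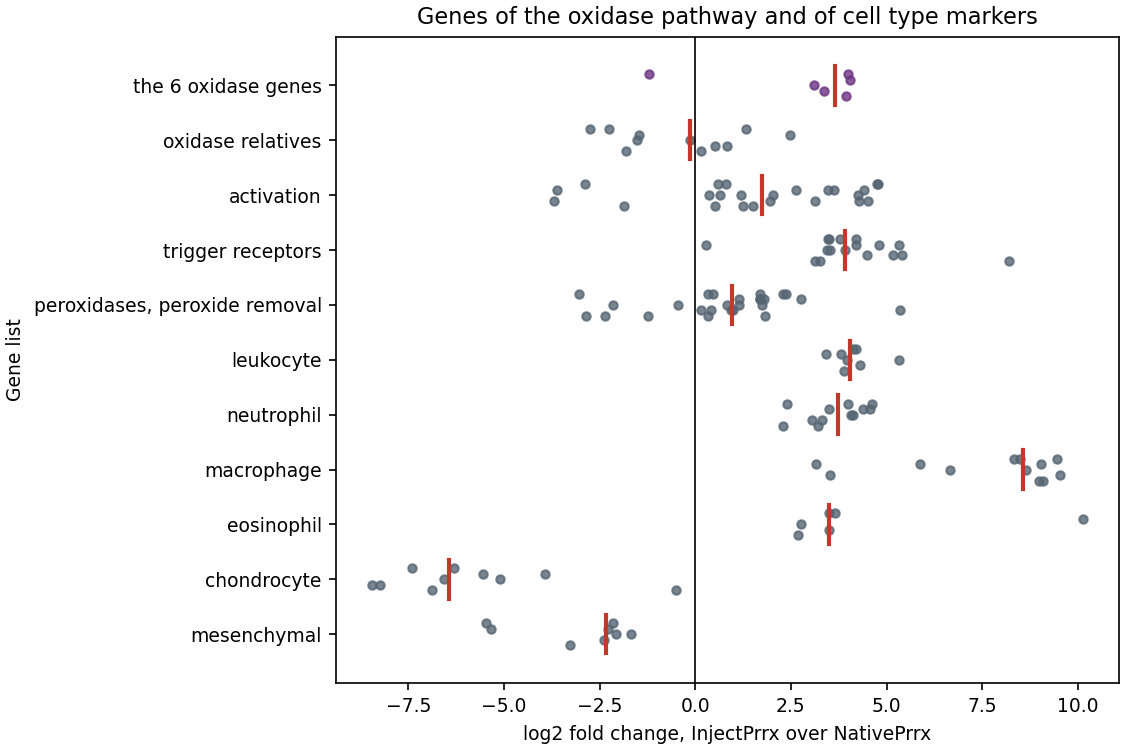
log2 fold change of every tested gene in the oxidase pathway lists and in 6 lists of cell type markers, with red lines for medians. The 5 phagocyte subunits lie from 3.10 to 4.05. Medians of the leukocyte, neutrophil and eosinophil markers are 4.04, 3.74 and 3.50, and that of the macrophage markers is 8.57. *Ncf1* and *Ncf4* lie below all of these medians. *Nox4* lies above the medians of the mesenchymal and chondrocyte markers (-2.33 and -6.44).

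Among 9555 genes with a mean log2 CPM of at least 3, the likeness of profiles was taken as the root mean square difference in centred log2 CPM over the 6 libraries, a description that rests mainly on the gap between the groups. The 5 nearest to *Cybb* were *Entpd1* (0.08), *Arrb2* (0.09), *Pparg* (0.09), *Cd74* (0.09) and *Spi1* (0.09), the gene of PU.1, with log2 fold changes of 3.90 to 4.14. *Cyba* came at rank 42, *Ncf4* at 76, *Rac2* at 101 and *Ncf1* at 162 (0.22, 0.31, 0.36 and 0.46 log2 units). The 5 nearest to *Nox4* were *Egln3*, *Pi4k2b*, *Dnmbp*, *Zfp266* and *Ift57*, at 0.05 to 0.13 log2 units and with log2 fold changes of -1.22 to -1.04.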

How the data were processed

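Bulk RNA-seq of 6 libraries was analysed, 3 per group as labelled. Per the paper's methods, SOAPnuke cleaned the reads, HISAT2 and Bowtie2 aligned them, and RSEM gave gene levels. The submitters' processing notes list Bowtie2 2.2.5, RSEM 1.2.12 and mm9, and the paper's methods give other versions. The authors deposited expected counts without normalization, FPKM (per length and depth), TPM (scaled to a fixed sum per library) and a signal equal to the count times 1 factor per library, used only as a check. The 24 columns were mapped by name, and 8 columns of averages were not used. Counting is not stated to use strand.

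Expected counts were rounded (20.6% were not whole) and tested with edgeR 4.0.16 (TMM, filterByExpr, quasi-likelihood test, Benjamini-Hochberg adjustment over 14289 genes, threshold 0.05) in R 4.3.3. The standard error is the log2 fold change over the square root of F. Ratios used FPKM + 0.1 and scipy 1.17.1. The edgeR script was tested on simulated data. DESeq2 1.42.0, limma 3.58.1, other normalizations and filters, a replicate block and each library left out were alternatives.

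Members and lists were chosen with earlier results of these data known. All 6 members and the listed relatives were named (1 relative is not reported here, and counts leave it out), and from other lists the extremes of change and the most abundant gene per group. *Ptprc*, *Adgre1*, *Fcgr2b*, *Mpo*, *Sod2*, *Nqo1*, the 3 *Prkc* genes and, in the list of genes that fell, *Gpx7* and *Prdx4* were named after their values were seen. The floor covers counting error only, whereas the standard errors and SDs include the spread between libraries. Each library was counted as 1 sample. Replicates of 1 group differed by more than counting noise (mean chi-square per gene of at least 3.84). This excess does not show that the replicates came from separate mice, and whether they did was not tested.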

Additional observations from a re-analysis of the deposited data

How the results depend on the processing

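The 6 oxidase genes kept their direction and their call in each of the 16 alternative fits, and so did the counts of 5 higher and 1 lower. Left-out libraries moved the counts over all genes between 3672 and 5563 higher and between 3761 and 5686 lower, with both maxima without endogenous replicate 1. With limma on TPM, 2 relatives of the oxidases were called higher instead of 4, and 1 receptor (*Tnfrsf1a*, -0.16) was called lower. *Rac3* was then at -0.23, beside a median over all genes of -0.28. TPM scales the library sums of FPKM, which were larger in the MSC-derived group, to a common value. Why these sums differed was not tested. Ratios whose groups overlapped had no stable sign. With 1 FPKM added, *Cyba* to *Ptprc* was 0.14 and *Rac2* to *Cybb* 0.034. With libraries left out in turn, *Cyba* to *Cybb* ran from -0.17 to 0.20, *Cyba* to *Ptprc* from -0.44 to 0.029, *Rac2* to *Cybb* from -0.41 to 0.15, *Rac2* to *Ptprc* from -0.68 to 0.0088, and *Rac3* from -0.15 to 0.28. The lowest value of each came without endogenous replicate 1, and the groups of these ratios then no longer overlapped. Same-numbered libraries were not paired in the main fit, and their deviations from the group means correlated at 0.00 to 0.02. With 3 libraries per group, these correlations cannot tell whether same-numbered libraries shared a processing step. With the replicate number as a block 4103 genes were higher and 3920 lower, and among the genes named the call of *Noxo1* was lost (adjusted p = 0.0978). Depth did not limit the 6 genes, whose lowest count was 109.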
